A study of Mus musculus with 7 samples.

Results

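Transcripts of 8 genes of the glucocorticoid response and the circadian clock were followed across mouse neutrophils of 3 healthy tissues and 4 conditions of inflammation. The genes were Nr3c1, Tsc22d3, Fkbp5, Per1, Arntl, Nfil3, Txnip and Ddit4, which were chosen by name, with earlier results of these data known, and they are 8 of the 28719 gene symbols listed in at least 1 of the 7 count tables. Neutrophils, sorted as CD11b+ Ly6G+ PI-negative live cells, came from male C57BL/6J mice. In healthy mice they were taken from bone marrow, spleen and peripheral blood in run 1 at 6 weeks of age and in run 2 at 8 weeks, with 1 library per tissue and run, so that age and run cannot be told apart. In each run 3 mice were pooled and gave all 3 tissues, so that 2 pools per tissue are the replicates. The 5 conditions of the inflammation experiment were hashtagged cells of 1 library from mice of 8 weeks. They were healthy blood, blood and joint lavage on day 7 after 150 µl of arthritogenic K/BxN serum on days 0 and 2, lung lavage 3 h after 25 ng of IL-1β into the nose, and peritoneal lavage 3 h after 25 ng of IL-1β into the peritoneum. The mice were kept with lights on from 7 AM to 7 PM, and the hour of harvest is not given in the sources used here.

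Glucocorticoids such as corticosterone bind the glucocorticoid receptor, encoded by Nr3c1, which is held by chaperones in the cytoplasm and then binds DNA at genes such as Tsc22d3, Fkbp5 and Per1. Tsc22d3 encodes the anti-inflammatory protein GILZ, and Fkbp5 a co-chaperone that lowers the hormone affinity of the receptor. In the circadian clock, ARNTL (BMAL1) and CLOCK switch on the period and cryptochrome genes, whose proteins then repress them, while NFIL3 represses genes with D-box elements. Txnip encodes a binding partner of thioredoxin that limits glucose uptake, and Ddit4 an inhibitor of the growth kinase complex mTORC1 that responds to hypoxia, stress and glucocorticoids. Blood corticosterone and the neutrophils of mouse blood both follow the time of day.

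Promoter windows of 300 bases, from 250 before to 50 after a transcript start in the RefSeq annotation of GRCm38.p6, were found for 7 of the 8 genes, in 11 windows. The windows are shown for Tsc22d3 and Txnip, the members that differed between tissues, and for Per1, which differed between the inflamed sites. Tsc22d3 had 3 windows and Per1 had 2, and the one with a match is shown for each, since the other 2 of Tsc22d3 and the other of Per1 had none. Capitals mark the matches to the letters searched on both strands.
Tsc22d3 at chrX:140600473-140600772, minus strand, with the glucocorticoid receptor half-site AGAACA, here read as TGTTCT: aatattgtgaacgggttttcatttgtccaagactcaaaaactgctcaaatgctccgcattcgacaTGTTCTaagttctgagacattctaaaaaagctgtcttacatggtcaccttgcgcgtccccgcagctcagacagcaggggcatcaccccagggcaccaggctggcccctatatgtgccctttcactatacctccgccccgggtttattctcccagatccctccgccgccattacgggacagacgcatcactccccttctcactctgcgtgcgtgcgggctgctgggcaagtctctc
Per1 at chr11:69098699-69098998, plus strand, with the E-box CACGTG: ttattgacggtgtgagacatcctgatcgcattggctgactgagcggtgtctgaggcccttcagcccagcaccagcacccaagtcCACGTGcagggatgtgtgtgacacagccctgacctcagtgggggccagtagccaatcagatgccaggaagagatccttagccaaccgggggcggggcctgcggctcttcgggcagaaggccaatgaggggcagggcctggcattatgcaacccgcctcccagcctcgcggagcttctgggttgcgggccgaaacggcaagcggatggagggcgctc
Txnip at chr3:96557707-96558006, plus strand, with a pair of CACGAG repeats: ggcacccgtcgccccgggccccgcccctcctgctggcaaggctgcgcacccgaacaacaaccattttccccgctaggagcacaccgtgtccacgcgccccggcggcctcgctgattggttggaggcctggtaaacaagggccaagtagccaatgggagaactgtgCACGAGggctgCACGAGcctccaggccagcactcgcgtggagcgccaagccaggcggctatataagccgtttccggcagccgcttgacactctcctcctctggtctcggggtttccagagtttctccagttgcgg
The half-site of Tsc22d3 began at -185 from the transcript start and the E-box of Per1 at -166. The half-site was present in 19.0% of 32851 mouse promoter windows of the same length and the E-box in 7.15%. These shares are per window, and further windows of Tsc22d3 and of Per1 were searched, so a match in any window of these genes was more likely. The Txnip repeats began at -85 and -74, and CACGAG, whose choice was made after the sequence was seen, was present in 6.47% of windows. In the other members Fkbp5 had an E-box at -169, Ddit4 an E-prime-box CACGTT at -188, and Nfil3 and Arntl the core TAGGTCA of the element bound by ROR and REV-ERB at -12 and 30. The D-box TTATGTAA and the cyclic AMP element TGACGTCA were in 0.938% and 1.79% of windows and in none of the 11. No match overlapped another, and a match of letters is a description and not a bound site. In the GENCODE annotation of mm10, Tsc22d3 spans chrX:140539528-140600659 on the minus strand, Per1 spans chr11:69095217-69109960 on the plus strand and Txnip spans chr3:96557957-96561883 on the plus strand.

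Of 16907 deposited healthy cells, 12755 with at least 3% of their unique molecular identifiers (UMIs) from S100a8 and S100a9 were kept, 1135 to 3672 per library. A UMI count is a count of captured transcripts, and levels are given as CPM, the UMIs of a gene divided by all UMIs of the kept cells of a library and multiplied by 1000000. Sums ran from 1360064 to 9104133 UMIs per library, with medians of 775 to 2699 UMIs per cell. All 15 neutrophil markers had UMIs in every library and took 21.3% to 50.4% of UMIs, and 16.1% to 28.3% in the inflammation conditions. The kept cells of blood in run 2 held 30348 CPM of haemoglobin and other erythroid markers, against 252 to 912 CPM in the other 5 libraries, and those of spleen in run 2 held 903 CPM of B-cell and 222 CPM of T-cell markers. Pairs of libraries shared 0 to 36 cell barcodes. The tables of run 1 list only genes with at least 11 UMIs in a library, so that a gene they do not list had at most 10 UMIs there or was not in the annotation. Per1 was not listed in bone marrow and spleen of run 1, Arntl was not listed in blood and spleen of run 1, and the other 6 members were in all 7 tables.

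The first question was how the members differ between the tissues of healthy mice. Tsc22d3 and Txnip were higher in blood and spleen than in bone marrow, by about 4-fold to 5-fold in blood and 3-fold in spleen. The receptor Nr3c1 and the repressor Nfil3 were also higher in blood than in bone marrow of the same run, but these differences did not pass the test, and Fkbp5 and Ddit4 had no call. Per1 was too sparse in run 1 to enter the main comparison, and Arntl was near 0 in the kept neutrophils of the 4 libraries that list it.

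Tsc22d3 stood at 99.1, 238 and 562 CPM in bone marrow, spleen and blood of run 1, and at 234, 976 and 938 CPM in run 2. Blood averaged 750 ± 266 CPM (SD, n = 2) and bone marrow 167 ± 95.3 CPM. Within a run, bone marrow was the lowest tissue, while spleen of run 1 was barely above bone marrow of run 2, so that spleen and bone marrow nearly met across runs and blood did not overlap with bone marrow. The log2 fold change of blood against bone marrow was 1.95 ± 0.27 (SE), with an adjusted p of 0.00113 by the edgeR quasi-likelihood test with Benjamini-Hochberg adjustment over 6588 genes. For spleen against bone marrow it was 1.5 ± 0.27 with an edgeR adjusted p of 0.0121. Spleen and blood did not separate, at -0.45 ± 0.26 and an edgeR adjusted p of 0.471.

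Txnip stood at 109, 255 and 819 CPM in bone marrow, spleen and blood of run 1 and at 138, 583 and 636 CPM in run 2. Here both bone marrow libraries lay below every spleen and blood library, and both spleen libraries lay below both blood libraries, by a narrow gap in run 2. The log2 fold change was 2.27 ± 0.30 for blood against bone marrow (edgeR adjusted p = 0.000892) and 1.5 ± 0.29 for spleen against bone marrow (edgeR adjusted p = 0.0178). For spleen against blood it was -0.77 ± 0.29 with an edgeR adjusted p of 0.336.

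These were 2 of the 6 members tested in each of the contrasts with bone marrow. Over all genes 31.1% were called for blood against bone marrow and 5.25% for spleen against bone marrow, so that the member count in blood was near the share of all genes. For spleen against blood edgeR called 0.213% of genes and 0 of 6 members, with 1 member at an unadjusted p under 0.05, and DESeq2 also called 0. The calls of both genes for spleen against bone marrow ended without the spleen library of run 2, at edgeR adjusted p-values of 0.133 for Tsc22d3 and 0.213 for Txnip, and without the blood library of run 2, at 0.0627 and 0.0629. That of Txnip also ended with genes not listed in run 1 set at 0 UMIs, at an edgeR adjusted p of 0.0519. With no replicate block the edgeR adjusted p-values were 0.526 for Tsc22d3 and 0.288 for Txnip in spleen, and 0.156 and 0.0430 in blood, so that Txnip in blood was the only call of the 4 in that fit.

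Nr3c1, the receptor itself, stood at 44.7, 39.4 and 83.1 CPM in bone marrow, spleen and blood of run 1 and at 53.7, 116 and 101 CPM in run 2. Blood was above bone marrow in both runs, whereas spleen was below bone marrow in run 1 and above it in run 2. The blood against bone marrow difference of 0.58 ± 0.26 on the log2 scale did not pass, with an edgeR adjusted p of 0.118. It passed in fits without either spleen library, at edgeR adjusted p-values of 0.0312 without that of run 1 and 0.0351 without that of run 2.

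Nfil3 stood at 21.9, 23.1 and 42.6 CPM in bone marrow, spleen and blood of run 1 and at 39.2, 66.4 and 77.3 CPM in run 2. Blood was the highest tissue of each run, and blood of run 1 lay close to bone marrow of run 2. Its difference between blood and bone marrow was 0.65 ± 0.23 with an edgeR adjusted p of 0.0592, and without the spleen library of run 1 or of run 2 the adjusted p was 0.0317 or 0.0344. Among cells with at least 10% of UMIs from S100a8 and S100a9 it was 0.77, with an edgeR adjusted p of 0.0396.

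Fkbp5, by contrast with Tsc22d3, was at 14.1, 11.2 and 21.3 CPM in bone marrow, spleen and blood of run 1 and at 14.5, 10.7 and 10.1 CPM in run 2. Blood was the highest tissue in run 1 and the lowest in run 2. The sums held only 21 to 132 UMIs of Fkbp5, and its difference between blood and bone marrow was -0.33 ± 0.33 (edgeR adjusted p = 0.479).

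Ddit4 was at 2.59, 3.35 and 7.35 CPM in bone marrow, spleen and blood of run 1 and at 4.61, 25.6 and 6.89 CPM in run 2. Spleen of run 2 stood apart from the 5 other libraries. The log2 difference of spleen against bone marrow was 1.56 ± 0.50 with an edgeR adjusted p of 0.114. It passed without bone marrow of run 1, at an edgeR adjusted p of 0.00605, and without spleen of run 1, at 0.0129. Over the fits that leave out 1 library the difference ran from 0.14, without spleen of run 2 (edgeR adjusted p = 0.965), to 2.17. In the cells of spleen in run 2 that were not kept, which held fewer S100a8 and S100a9 UMIs, Ddit4 was at 175 CPM. Among kept cells of that library without a UMI of a B-cell, T-cell or NK-cell marker, Ddit4 was at 12.8 CPM, while Tsc22d3 was at 1036 CPM and Txnip at 643 CPM. With such cells left out of all libraries, 2 members were again called in each contrast with bone marrow, and these were Tsc22d3 and Txnip.

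Per1 was at 13.2 CPM in blood of run 1, and at 12.3, 37.8 and 35.3 CPM in bone marrow, spleen and blood of run 2. In run 1 its upper bounds were 2.35 CPM in bone marrow and 3.72 CPM in spleen. Blood was therefore above bone marrow in each run, and spleen was above it in run 2. Set to the bound of 10 UMIs where it was not listed, Per1 had a log2 difference of 1.5 ± 0.36 between blood and bone marrow (edgeR adjusted p = 0.0124), and set to 0 UMIs it had 2.1 ± 0.92 (edgeR adjusted p = 0.146). Both fills were chosen after the data were seen.

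Arntl had 3 and 15 UMIs in the kept cells of bone marrow in runs 1 and 2, 0 in spleen and 2 in blood of run 2, which is 0 to 1.65 CPM. In run 1 its upper bounds were 3.72 CPM in spleen and 7.35 CPM in blood. In the cells of bone marrow under the 3% limit of S100a8 and S100a9 it was at 43.5 CPM in run 1 and 86.8 CPM in run 2. At this depth no difference in Arntl between neutrophils of the tissues was detectable.

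**Figure D1:**
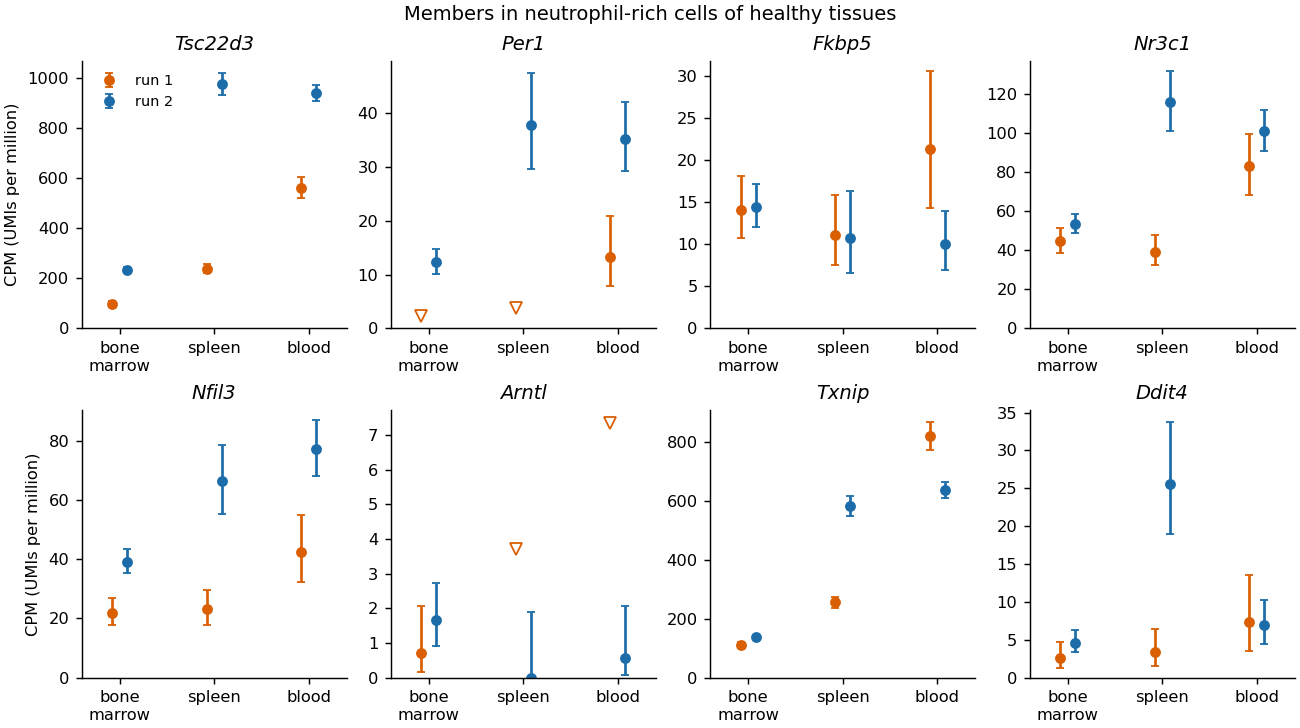
Levels of the 8 members in kept cells of the 6 healthy libraries, in CPM on linear axes from 0 (vertical) by tissue (horizontal), with 1 point per library coloured by run, bars for 95% exact Poisson intervals of counting error, and open triangles where a table of run 1 gives only an upper bound. Tsc22d3 and Txnip stand lowest in bone marrow of each run, and Ddit4 is high in spleen of run 2 alone, at 25.6 CPM.

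The share of cells with a transcript was compared after thinning each cell to 500 UMIs, which left out 26 cells of blood in run 1 and none elsewhere. Tsc22d3 was seen in 4.89% of bone marrow cells of run 1 (95% exact binomial interval 3.74% to 6.27%) and in 12.8% of run 2 (11.7% to 13.9%). In blood it was seen in 27.7% (25.3% to 30.3%) and 36.8% (35.2% to 38.4%), and in spleen in 18.5% (16.3% to 20.9%) and 39.8% (37.6% to 41.9%). Without thinning the Tsc22d3 shares in bone marrow were 26.9% and 43.5%, and those in blood 39.1% and 54.3%. Txnip was seen in 7.46% and 9.05% of thinned bone marrow cells and in 38.0% and 27.8% of blood cells. For a look at free RNA, 717 droplets of blood in run 2 with at least 50% of UMIs from haemoglobin were counted. They had Tsc22d3 in 3.21% and Txnip in 1.95% when thinned, and in 13.7% and 7.67% without thinning. Their median was 2753 UMIs against 826 in the kept cells. Haemoglobin takes at least 50% of their UMIs, which leaves less room for other transcripts after thinning, so they cannot serve as a measure of the background. The thinned shares of Tsc22d3 and Txnip in kept cells were above those of these droplets in all 6 libraries, although the interval of Tsc22d3 in bone marrow of run 1 overlapped with that of the droplets (2.04% to 4.77%). Such droplets were counted in blood of run 2 alone, and the background of the kept cells was not measured in any library. Per1, with 1.80% of blood cells of run 2 against 0.418% of such droplets, rested on 66 and 3 cells. These intervals cover counting error only.

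Bone marrow holds more of the less mature neutrophils that express secondary granule genes, so the tissues were also compared among cells with under 3% of UMIs from Camp, Ngp, Ltf, Lcn2 and Chil3, here called granule-low. These cells were 39.97%, 56.8% and 89.4% of kept cells in bone marrow, spleen and blood of run 1 and 56.6%, 96.9% and 99.2% in run 2. Within them Tsc22d3 and Txnip were again higher in blood and spleen than in bone marrow, by about 2-fold to 3-fold, and the differences in Nr3c1 and Nfil3 between blood and bone marrow were smaller than over all kept cells and did not pass.

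In granule-low cells Tsc22d3 was at 161, 688 and 716 CPM in bone marrow, spleen and blood of run 1 and at 376, 1095 and 964 CPM in run 2. Every spleen and blood library was above both bone marrow libraries, with a wider gap for spleen than over all kept cells. The log2 difference was 1.35 ± 0.24 for blood against bone marrow (edgeR adjusted p = 0.00417 over 5721 genes) and 1.42 ± 0.24 for spleen (edgeR adjusted p = 0.00458). Txnip was at 255, 779 and 1057 CPM in run 1 and at 247, 654 and 654 CPM in run 2, again with no overlap of bone marrow with the other tissues. Its differences were 1.34 ± 0.22 (edgeR adjusted p = 0.00260) and 1.13 ± 0.21 (edgeR adjusted p = 0.00775). These 2 of 6 members were called against 17.3% of all genes for blood and 13.7% for spleen.

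The calls in blood ended without the blood library of run 2, at adjusted p-values of 0.101 for Tsc22d3 and 0.0893 for Txnip by edgeR. That of Txnip in spleen ended without the bone marrow library of run 1, at an edgeR adjusted p of 0.0660. With no replicate block all 4 calls in granule-low cells ended, at edgeR adjusted p-values of 0.234 for Tsc22d3 and 0.0569 for Txnip in blood, and 0.246 and 0.0967 in spleen. The granule-low cells of bone marrow were not the same state as those of the other tissues, since their median granule gene share was 0.771% and 0.777% against 0.0551% to 0.359% elsewhere, and the part of this in the differences was not tested.

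Among the other members in granule-low cells, Nr3c1 differed between blood and bone marrow by 0.24 and Nfil3 by 0.04 on the log2 scale, with edgeR adjusted p-values of 0.439 and 0.910. Fkbp5 was at -0.50 (edgeR adjusted p = 0.431). Ddit4 was at 28.1 CPM in spleen of run 2 against 3.09 to 8.77 CPM in the 5 other libraries, and its difference of spleen against bone marrow was 1.47 (edgeR adjusted p = 0.0843). It passed without bone marrow, spleen or blood of run 1, at edgeR adjusted p-values of 0.0394, 0.00460 and 0.0482, and with mitochondrial and gene number limits on cells, at 0.0438. Without spleen of run 2 Ddit4 was under the count filter, and without bone marrow or blood of run 2 it did not pass, at edgeR adjusted p-values of 0.367 and 0.126. In the fit without the spleen library of run 1 Ddit4 was the only member called for spleen against blood, at 1.76 (edgeR adjusted p = 0.0213). Over all 6 libraries edgeR called 0 of 6 members for spleen against blood, against 0.0524% of genes, with 1 member at an unadjusted p under 0.05, and DESeq2 also called 0.

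Granule-low and granule-high cells of the same library were then compared, which asks how the members change with maturity inside a tissue. Tsc22d3, Txnip, Nfil3 and Nr3c1 were all higher in granule-low cells, and Fkbp5 was not. That was 4 of the 5 members tested, where 45.4% of all genes were called, 1233 of them higher and 1183 lower. The block of this fit was the library, so the 6 libraries counted as replicates although they came from 2 pools of mice. Its p-values take these libraries as independent and may look stronger than 2 pools allow. Ddit4 was under the count filter and Per1 and Arntl were not listed in every table.

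Txnip was at 65.9, 65.8 and 86.9 CPM in granule-high cells of bone marrow, spleen and blood of run 1 and at 72.9, 89.4 and 83.8 CPM in run 2, against 247 to 1057 CPM in granule-low cells. The 2 states did not overlap, and among granule-high cells the tissues lay within the counting error of each other. The log2 difference of granule-low against granule-high cells was 2.37 ± 0.19 with an edgeR adjusted p of 4.03e-07. Tsc22d3 was at 80.9, 75.5 and 86.9 CPM in granule-high cells of run 1 and at 150.1, 150.4 and 130 CPM in run 2, with a difference of 1.96 ± 0.23 (edgeR adjusted p = 1.36e-05). In granule-high cells, therefore, Tsc22d3 differed more between runs than between tissues, and the granule-low cells of each library were higher than its granule-high cells.

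Nfil3 rose from 12.2 to 37.2 CPM in granule-high sums to 35.0 to 78.5 CPM in granule-low sums, higher in 6 of 6 libraries, by 0.93 ± 0.22 (edgeR adjusted p = 0.00297). Nr3c1 was higher in granule-low cells of 6 of 6 libraries, by 0.65 ± 0.19 (edgeR adjusted p = 0.0121), as with 69.0 against 37.6 CPM in bone marrow of run 1. Fkbp5 was at 13.4 against 14.3 CPM there, and its difference was 0.12 ± 0.29 (edgeR adjusted p = 0.766). Per1 in bone marrow of run 2 was at 16.6 against 9.79 CPM with counting intervals that overlapped only at 12.5 to 12.7 CPM. Granule-low and granule-high are ranges of a share and not cell types, and 69 and 239 granule-low and 47 and 168 granule-high cells of bone marrow in runs 1 and 2 lay within 1 percentage point of the limit. Granule-high cells were few in some libraries, with 139 cells in blood of run 1, and 62 in spleen and 29 in blood of run 2.

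**Figure D2:**
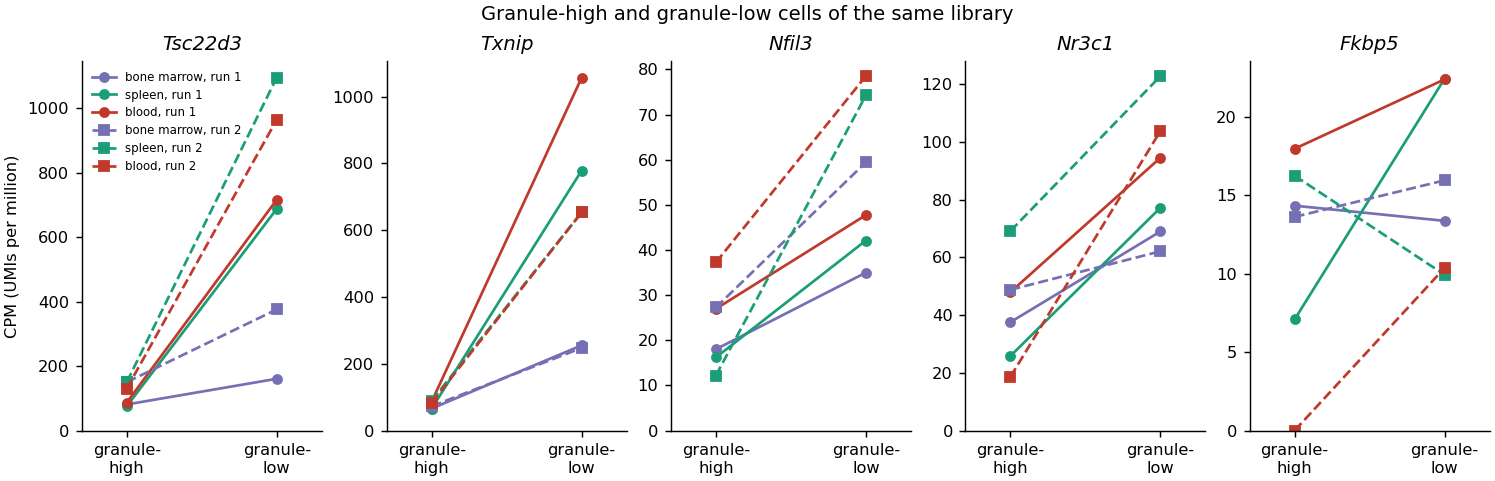
Levels of the 5 members tested in granule-high and granule-low cells (horizontal) of each healthy library, in CPM on linear axes from 0 (vertical), with a line joining the 2 states of a library and colours for tissue. Lines rise for Tsc22d3 and Txnip in all 6 libraries, least in bone marrow, and go in both directions for Fkbp5.

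The size of this step was larger outside bone marrow. For Tsc22d3 the log2 step from granule-high to granule-low exceeded that of bone marrow by 1.34 ± 0.29 in blood (edgeR adjusted p = 0.0231) and by 1.47 ± 0.25 in spleen (edgeR adjusted p = 0.00441). For Txnip the excess was 1.06 ± 0.25 in spleen (edgeR adjusted p = 0.0275) and 1.05 ± 0.30 in blood, where it did not pass (edgeR adjusted p = 0.0774) except without spleen of run 1 or of run 2, at 0.0482 and 0.0442. That was 1 of 5 members for blood and 2 of 5 for spleen, against 2.73% and 4.1% of all genes. Between spleen and blood edgeR called 0 of 5 members and 0.0188% of genes, with 0 members at an unadjusted p under 0.05. The Tsc22d3 excess in blood was not called without either bone marrow or either blood library, at edgeR adjusted p-values of 0.180, 0.0965, 0.202 and 0.113 for bone marrow of runs 1 and 2 and blood of runs 1 and 2. In spleen it was not called without bone marrow of run 1, at an edgeR adjusted p of 0.0777. The Txnip excess in spleen was not called without bone marrow of run 1 or 2 or spleen of run 1, at edgeR adjusted p-values of 0.191, 0.306 and 0.410.

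The wider pathways were read from lists with the members taken out, of 21 glucocorticoid targets, 12 genes of the receptor machinery, 19 clock genes and 17 genes of the Txnip and Ddit4 pathway. The list counts stand beside edgeR calls for 31.1% of all genes in blood against bone marrow, 5.25% in spleen against bone marrow and 45.4% with the granule state. Of 10 glucocorticoid target genes tested, 8 rose and 1 fell in blood against bone marrow, with a median log2 change of 1.35 where the median over all genes was -0.00. The list was led by Dusp1, a phosphatase of MAP kinases, at 3.59 ± 0.33 (edgeR adjusted p = 0.000206), Tgm2, a transglutaminase, at 2.55 ± 0.41, and Zfp36, which destabilises cytokine transcripts, at 1.75 ± 0.27. The 1 that fell, named after its value was seen, was Anxa1, which encodes the anti-inflammatory annexin A1, at -1.71 ± 0.40. In spleen against bone marrow 3 of 10 rose and none fell, led by Dusp1 at 2.58, Tgm2 at 2.45 and Sgk1, a kinase, at 1.14. With the granule state 6 of 8 rose and 1 fell, with Dusp1 at 3.75, Anxa1 at -1.86 and Zfp36l2 at 1.82.

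Of 9 genes of the receptor machinery tested, 2 fell and 0 rose in blood against bone marrow, a smaller share than the 31.1% of all genes called, and DESeq2 called 1. These were Hsd11b1, which regenerates active corticosterone inside cells, at -2.33 ± 0.46, and the chaperone Hsp90ab1 at -0.78 ± 0.24. In spleen against bone marrow edgeR called 0 of 9, with 0 at an unadjusted p under 0.05, and DESeq2 called 0. With the granule state Hsd11b1 fell by 1.84 on the log2 scale, and the receptor coactivator Ncoa1 and corepressor Ncor1 rose by 0.77 and 0.62, which was 3 of 8. Hsd11b1 was at 103, 106 and 28.7 CPM in bone marrow, spleen and blood of run 1 and at 103, 31.7 and 23.0 CPM in run 2, so that blood was the lowest tissue of each run.

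Of the clock list only 6 genes were deep enough to test. In blood against bone marrow 2 rose, the period gene Per2, which is also in the glucocorticoid list, by 1.39 ± 0.45 and the kinase Csnk1e, which phosphorylates period proteins, by 1.03 ± 0.23. That count is near the 31.1% of all genes called, and DESeq2 called 1 of the 6. In spleen against bone marrow edgeR called 0 of 6, with 2 at an unadjusted p under 0.05, and DESeq2 called 0. With the granule state 2 of 4 clock genes rose, near the 45.4% of all genes called, and Csnk1e rose by 1.49. Of the Txnip and Ddit4 pathway 4 of 11 rose and 1 fell in blood against bone marrow, with Arrdc3 and Arrdc4, arrestin relatives of Txnip, at 2.37 and 1.53, and Sesn2, a stress-induced inhibitor of mTORC1, at 1.43. The 1 that fell, named after its value was seen, was Mlx, the partner of the glucose sensor MondoA, at -0.90. In spleen Arrdc3 and Arrdc4 rose by 1.62 and 1.25, which was 2 of 11. With the granule state 5 of 8 rose and 2 fell, led by Arrdc3 at 3.04, Sesn2 at 2.65 and Arrdc4 at 1.85.

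The lists were read in granule-low cells as well. For blood against bone marrow edgeR called 17.3% of all genes, and 6 of 10 glucocorticoid targets rose and 1 fell, with a median of 0.76, while DESeq2 called 3 of the 10. By edgeR Per2 rose by 2.88, Dusp1 by 2.23 and Tgm2 by 1.99. For spleen against bone marrow edgeR called 13.7% of all genes, and 5 of 10 rose and 1 fell, while DESeq2 called 2, with edgeR changes of 2.91 for Per2, 2.07 for Tgm2 and 1.90 for Dusp1. Per2 was the 1 of 5 clock genes that edgeR called in each of these contrasts, a count near the shares of all genes, and DESeq2 called 0 of the 5. Hsd11b1 was again lower than in bone marrow, by -2.10 in blood and -1.69 in spleen. Arrdc3 and Arrdc4 were the 2 of 10 genes of the Txnip and Ddit4 pathway that rose, at 1.26 and 0.90 in blood and 1.09 and 1.10 in spleen, and DESeq2 called 1 of the 10 in each.

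The inflammation library asks how the members stand at sites of inflammation against healthy blood. It held 1 sample per condition, so no difference has a replicate check or a test, and intervals cover counting error only. Cells of an ImmGen granulocyte class numbered 509 in healthy blood, 814 in K/BxN blood, 2857 in joint, 380 in lung and 292 in peritoneum, with 942688 to 10293966 UMIs. Tsc22d3 was lower at all 3 inflamed sites than in healthy blood, and Nfil3 and Ddit4 were higher. Per1 was higher in joint and lung but not in peritoneum, and Txnip stayed within 2-fold of healthy blood per total UMIs, though not in lung under another scaling. In blood of arthritic mice no member was past 2-fold.

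Tsc22d3 was at 1181 CPM in healthy blood, 981 in K/BxN blood, 382 in joint, 164 in lung and 194 in peritoneum. The 2 bloods were the highest and the IL-1β sites the lowest. Against healthy blood Tsc22d3 was 3.10-fold lower in joint (2.91 to 3.29), 7.23-fold lower in lung (6.25 to 8.38) and 6.09-fold lower in peritoneum (5.21 to 7.14). Against K/BxN blood it was 2.57-fold lower in joint (2.44 to 2.70), and lung and peritoneum were not distinguishable at a ratio of 0.842 (0.688 to 1.03).

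Per1 was at 51.6 CPM in healthy blood, 66.8 in K/BxN blood, 218 in joint, 171 in lung and 20.2 in peritoneum. Joint and lung stood above both bloods and peritoneum below them. The ratio to healthy blood was 4.23 in joint (3.26 to 5.59), 3.32 in lung (2.48 to 4.51) and 0.391 in peritoneum (0.220 to 0.666), and the ratio of lung to peritoneum was 8.49 (5.31 to 14.4). The peritoneal value rested on 19 UMIs. Thinning to 1000 UMIs kept 354 of 509 cells of healthy blood, 2734 of 2857 of joint, 286 of 380 of lung and 231 of 292 of peritoneum, leaving out the shallower cells. Among the cells left, 19.9% of joint cells and 10.1% of lung cells had a Per1 UMI, against 4.24% in healthy blood and 1.3% in peritoneum. Without thinning these shares were 47.3%, 38.4%, 10.2% and 5.82%.

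Nfil3 was at 48.9 CPM in healthy blood, 71.7 in K/BxN blood, 161 in joint, 475 in lung and 118 in peritoneum. Lung stood far above the rest, at 9.71-fold healthy blood (7.36 to 13), with joint at 3.29 (2.51 to 4.38) and peritoneum at 2.41 (1.73 to 3.39). Fkbp5 was at 54.2, 36.8, 26.9, 63.6 and 14.9 CPM in the same order, so that it was near healthy blood in lung and lower elsewhere. Its ratio of lung to peritoneum was 4.28 (2.42 to 8.17).

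Nr3c1 was at 244 CPM in healthy blood, 185 in K/BxN blood, 186 in joint, 139 in lung and 115 in peritoneum, a narrower range than that of its targets. Txnip was at 1407, 1053, 1350, 1509 and 944 CPM in that order, and lung exceeded peritoneum 1.60-fold (1.48 to 1.73). Ddit4 was at 4.44, 4.46, 19.6, 16.7 and 28.6 CPM on 5, 12, 202, 22 and 27 UMIs, and its ratio to healthy blood was 4.41 in joint (1.86 to 13.7), 3.75 in lung (1.38 to 12.7) and 6.44 in peritoneum (2.45 to 21.4). Arntl had 1 UMI in healthy blood, 1 in joint and 0 in the other 3 conditions.

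Past 2-fold, on CPM with 5 CPM added, were 0 of 6 members in K/BxN blood, 4 of 7 in joint, 4 of 7 in lung and 6 of 7 in peritoneum. The share of all genes past 2-fold was 4.83%, 19.8%, 53.0% and 55.6% in the same order, so that the member count in lung was near the share of all genes. Joint against K/BxN blood had 4 of 7 members past 2-fold against 11.7% of genes, and lung against peritoneum 3 of 7 against 12.3%.

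Scaling mattered here, since the median gene was lower than in healthy blood by 0.34 in K/BxN blood and joint, 0.83 in lung and 0.90 in peritoneum on the log2 scale. With TMM factors, which centre the genes, Tsc22d3 was 2.26-fold lower in joint, 3.75-fold in lung and 3.12-fold in peritoneum, and Per1 and Nfil3 were 6.40-fold and 18.7-fold higher in lung. The directions of Tsc22d3 in K/BxN blood (ratio 1.12), of Txnip in K/BxN blood (1.00), joint (1.31) and peritoneum (1.31) and of Nr3c1 in K/BxN blood (1.02), joint (1.04) and lung (1.10) turned. Txnip and Fkbp5 passed 2-fold in lung, at 2.07 and 2.26. In peritoneum Per1 (0.763, from 0.429 to 1.3), Fkbp5 (0.535) and Nr3c1 (0.915) no longer passed. Of all genes past 2-fold, 578 were higher and 2498 lower in lung by total UMIs and 1154 and 904 with TMM factors. The same counts were 532 and 2538 against 1049 and 869 in peritoneum, 537 and 1077 against 789 and 288 in joint, and 36 and 279 against 87 and 37 in K/BxN blood.

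**Figure D3:**
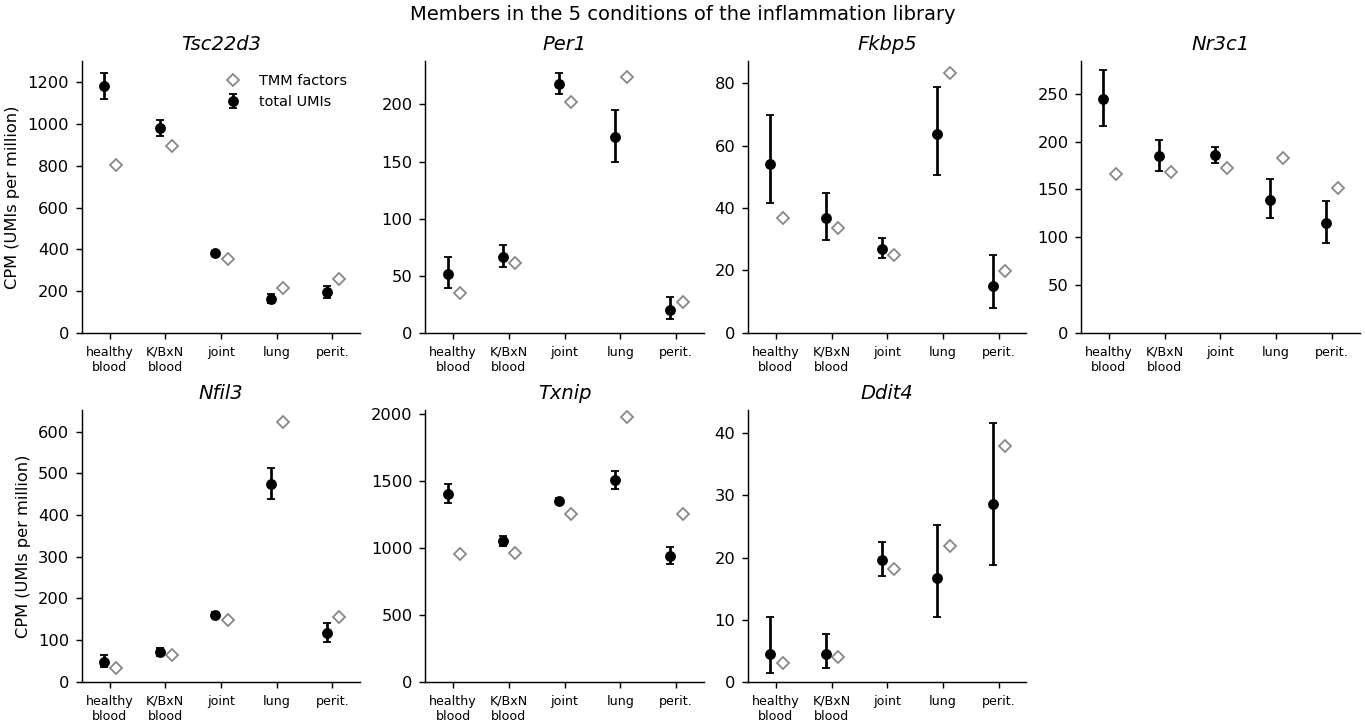
Levels of 7 members in the 5 conditions (horizontal) of the inflammation library, in CPM on linear axes from 0 (vertical), as black points per total UMIs with 95% exact Poisson intervals for counting error and as grey diamonds with TMM factors. Per total UMIs, Tsc22d3 is at 1181 CPM in healthy blood and 164 CPM in lung, and Nfil3 is highest in lung, at 475 CPM.

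At the inflamed sites the glucocorticoid target list, without its members, moved in both directions. Past 2-fold in either direction were 53.0% of all genes in lung, 55.6% in peritoneum and 19.8% in joint. In lung 9 of 15 genes were past 2-fold higher and 4 lower, with a median log2 ratio of 1.64 where that of all genes was -0.83. The largest were the metallothionein Mt1, with 2 UMIs (1.78 CPM) in healthy blood and 1390 UMIs (1052 CPM) in lung, the cell cycle inhibitor Cdkn1a at a log2 ratio of 5.42 and the decoy receptor Il1r2 at 3.82. In peritoneum 6 of 12 were higher and 4 lower, with Zfp36l2 at -4.23, the NF-κB inhibitor Nfkbia at 3.92 and Cdkn1a at 2.96. In joint 6 of 15 were higher and 4 lower, led by Tgm2 at 3.96, Cdkn1a at 3.74 and Il1r2 at 2.87. Many of these genes also answer to inflammatory signals.

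In the receptor machinery Hsd11b1 was higher than in healthy blood at all 3 sites, at log2 ratios of 1.52 in joint, 1.55 in lung and 1.72 in peritoneum, while 3 of 10, 5 of 8 and 5 of 9 genes were lower, with list medians of -0.43, -1.32 and -1.17 where the medians of all genes were -0.34, -0.83 and -0.90. Among all genes 1077 of 8148, 2498 of 5804 and 2538 of 5521 were lower, so that the count in peritoneum was near that of all genes. The counts in joint and lung rest on few genes and were not tested against those of all genes. In the clock list Bhlhe40, a repressor of CLOCK and BMAL1 targets, was higher at the same sites, at 3.30, 4.28 and 2.93, with 19.6 CPM in healthy blood and 471 CPM in lung. In joint 2 of 9 clock genes were past 2-fold higher and 0 lower, near the 19.8% of all genes past 2-fold there. Csnk1e was lower in lung and peritoneum, at -2.43 and -3.54. In joint 2 of 13 genes of the Txnip and Ddit4 pathway were past 2-fold higher and 2 lower. Of this list the thioredoxin reductase Txnrd1 was higher at the 3 sites, at 1.3, 3.69 and 3.87, and the arrestin relatives of Txnip moved apart. Arrdc3 was lower, at -1.68, -2.68 and -3.52, and Arrdc4 was higher, at 1.70, 1.68 and 1.11, the last of these named after its value was seen. Relative to the median gene, Hsd11b1, Bhlhe40, Csnk1e, Txnrd1, Arrdc3 and Arrdc4 lay on the same side at these sites as relative to 0. Between lung and peritoneum, where 12.3% of all genes were past 2-fold, 9 of 15 glucocorticoid targets were higher in lung and none lower, led by Mt1 at 4.33, Cdkn1a at 2.46 and Mt2, another metallothionein, at 1.88. The ratios of conditions to healthy blood share the same control cells.

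**Figure D4:**
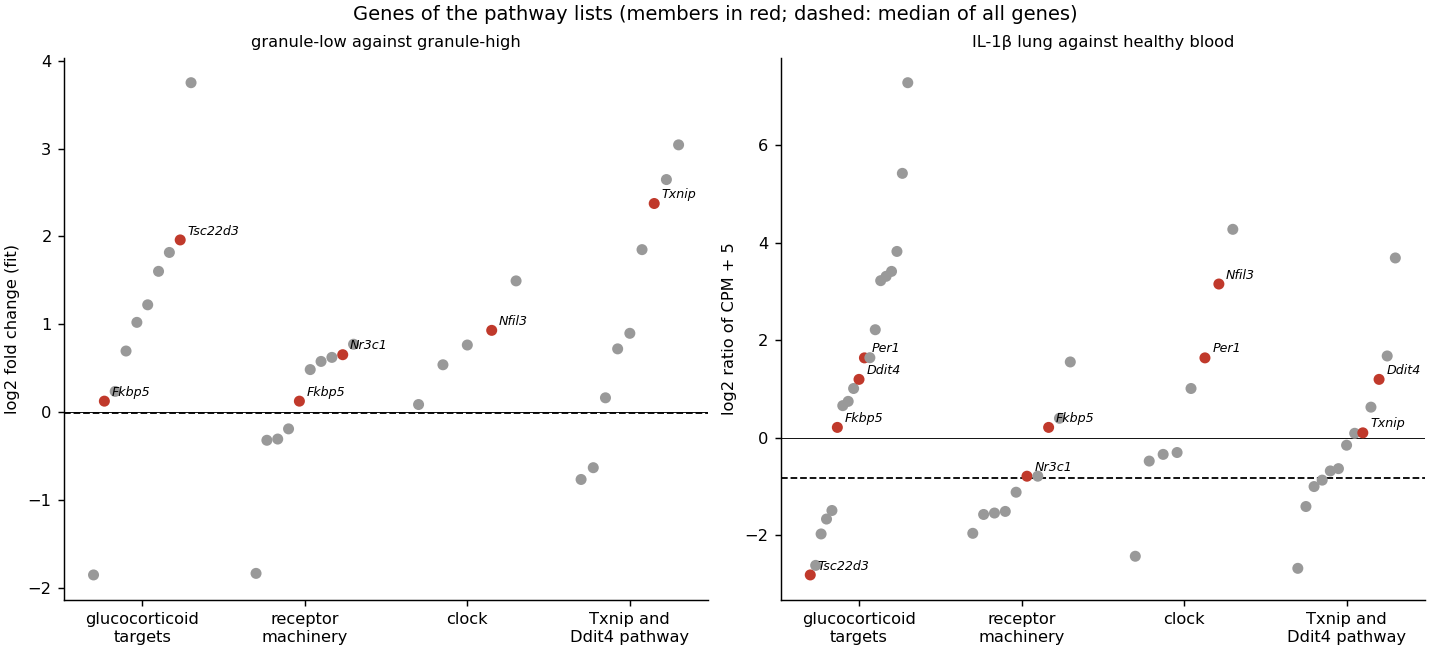
Genes of the 4 pathway lists (horizontal, sorted by value within a list) with members in red, as log2 fold changes of granule-low against granule-high cells on the left and log2 ratios of CPM + 5 of lung against healthy blood on the right, with the median of all genes dashed. Tsc22d3 stands at 1.96 on the left and is the lowest of its list, at -2.82, on the right.

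The patterns most like those of Tsc22d3 and Txnip were sought among 3692 genes over 11 sums, the 6 healthy libraries and 5 conditions, as the Pearson correlation of log2(CPM + 5) centred within each run and within the inflammation library. These points share libraries, so the values are descriptions. For Tsc22d3 the closest were Twistnb, Stat5b, Sc5d and Mpc1, each at 0.99, and Supt4a at 0.98. For Txnip they were Cd300ld, Picalm, Slfn1, Dusp1 and Mir142hg, each at 0.98. The 2 members themselves correlated at 0.66, and Tsc22d3 correlated with Nr3c1 at 0.87, with Fkbp5 at 0.21 and with Nfil3 at -0.35.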

How the data were processed

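Single-cell RNA sequencing was performed by the authors on sorted neutrophils from pools of 3 mice. Reads were aligned with Cell Ranger to mm10, and the deposited tables hold raw UMI counts per gene and cell, not normalised. The members and the gene lists were chosen with earlier results of these data known. Healthy cells with at least 3% of UMIs from S100a8 and S100a9 were kept, and inflammation cells were taken by the deposited condition and ImmGen granulocyte class. No doublet caller was run and free RNA was not corrected. Counts were summed per library, and the 6691 genes listed in all 6 healthy tables entered edgeR 4.0.16 in R 4.3.3 (TMM factors, filterByExpr, quasi-likelihood test, Benjamini-Hochberg adjusted p under 0.05).

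The run was a block, since 1 pool of mice gave all tissues in a run, and deviations of libraries of the same run correlated at 0.656 to 0.685 over 6588 genes. With 2 pools per tissue and this block, p-values of the tissue contrasts measure how far the tissue differences vary between the pools. The shift that the tissues of a run share is taken out by the block. In the granule state fits the library was the block, and p-values measure how far the step varies between libraries, which came from these 2 pools. Granule-low and granule-high sums needed at least 10 cells. The inflammation library, with 1 sample per condition, was compared by CPM with exact Poisson and conditional binomial 95% intervals, for genes with at least 20 UMIs over both conditions, and past 2-fold meant on CPM + 5. The genes named were the 8 members and, per list and comparison, at most the 3 with the largest change among those called. Alternatives were DESeq2 1.42.0, RLE factors, other cell and count filters, no block, fills for genes not listed, and leaving out each library. On simulated counts the blood against bone marrow fit found 19% of log2 changes of 1 and 88% of those of 2. The granule state fit found 64% and 86%, and 6.14% and 7.98% of the calls of these fits were false. The simulated counts held no difference between runs. A difference that was not called in the tissue contrasts is therefore not evidence of equal levels. A result for 1 gene of the clock list is not reported here.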

Additional observations from a re-analysis of the deposited data

Results flagged for a closer look

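The step of Tsc22d3 from granule-high to granule-low cells differed between tissues, by 1.34 on the log2 scale between blood and bone marrow and by 1.47 between spleen and bone marrow, and that of Txnip by 1.06 between spleen and bone marrow, in each case by the interaction term of the edgeR fit. The granule-low cells of bone marrow had a median granule gene share of 0.771% and 0.777%, against 0.0551% to 0.359% elsewhere, and its part in these differences was not tested.

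Per1 stood at 3.32 times its healthy blood level in lung and at 0.391 times in peritoneum, opposite ways at the sites given IL-1β. With 1 sample per site the difference was not tested, and with TMM factors the peritoneal ratio was 0.763 with an interval of 0.429 to 1.3.

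Arntl was at 0.706 and 1.65 CPM in kept neutrophils of bone marrow in runs 1 and 2, but stood at 43.5 CPM in run 1 and 86.8 CPM in run 2 in the bone marrow cells under the 3% limit of S100a8 and S100a9, which enter no comparison of the tissues.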

How the results depend on the processing

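The calls of Tsc22d3 and Txnip depended most on the pairing of tissues by run. With no replicate block, the members called fell from 2 to 1 for blood against bone marrow and to 0 for spleen against bone marrow, and to 0 for both in granule-low cells, while genes called went from 2047, 346 and 14 to 254, 0 and 0, and in granule-low cells from 991, 781 and 3 to 135, 0 and 0. With genes not listed in run 1 set at 0 UMIs, spleen against bone marrow called 1 member, and Txnip had an edgeR adjusted p of 0.0519.

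Without cells with a marker UMI of another cell type, which left blood of run 2 with 1 cell and so 5 sums, or 7 for the granule state, the granule state called 2 members in place of 4, and genes called were 222 there and 159 for blood against bone marrow. There Fkbp5 for blood against bone marrow was at 0.78 over all kept cells and 0.64 in granule-low cells, Nfil3 for spleen against bone marrow at -0.028 and Tsc22d3 for spleen against blood at 0.021. In granule-low cells, blood against bone marrow, Nfil3 turned to -0.042 with mitochondrial and gene number limits, to -0.083 without cells with a lymphocyte marker UMI and to -0.025 with a granule share under 1%, and Ddit4 to -0.26 with S100a8 and S100a9 at 10% and to -0.041 with the limits. None of the members that turned was called. DESeq2 called 1321 genes for blood against bone marrow and 30 for spleen against blood, and 479, 376 and 1 in granule-low cells.

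Leaving out 1 library at a time, the members called ranged from 2 to 4 for blood against bone marrow, 0 to 3 for spleen against bone marrow, and in granule-low cells 0 to 2, 2 to 3 and, for spleen against blood, 0 to 1, with 0 to 2 for each of the granule state differences with bone marrow. Genes called ranged from 377 to 2503, 44 to 987 and 0 to 232, in granule-low cells from 0 to 1553, 242 to 1035 and 0 to 126, and for the granule state differences from 13 to 183 and 29 to 219. In these fits Fkbp5 ranged from -0.73 to 0.15 for blood against bone marrow, and in granule-low cells from -1.08 to 0.42 there and -1.10 to 0.40 for spleen, and from -0.083 to 0.27 with the granule state. Ddit4 ranged from -0.00047 to 1.70 for blood against bone marrow, 0.14 to 2.17 for spleen against bone marrow and -0.41 to 1.62 for spleen against blood, and in granule-low cells from -0.40 to 1.47 for blood against bone marrow. Nr3c1 ranged from -0.12 to 0.69 for spleen against bone marrow and from -0.019 to 0.39 for blood in granule-low cells, and Nfil3 in those cells from -0.024 to 0.092 for blood and -0.17 to 0.0033 for spleen. In granule-low cells, spleen against blood, Tsc22d3 ranged from -0.14 to 0.29 and Txnip from -0.41 to 0.015. The cause of these changes was not tested.

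In the inflammation library the members past the fold went from 6 to 3 in peritoneum with TMM factors, and from 3 to 5 for lung against peritoneum at 1.5-fold. Genes past the fold in K/BxN blood were 1764 at 1.5-fold, 674 with a pseudocount of 1 CPM and 124 with TMM factors, against 315, and in joint 3753, 2660 and 1077 against 1614. Depth limits Arntl, Per1 in run 1, Ddit4 and Fkbp5, which rested on few UMIs.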

Other observations

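The cells that were not kept in spleen of run 2 held 175 CPM of Ddit4 and 12.0 CPM of Arntl, against 25.6 CPM and 0 UMIs in its kept cells.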
